A study of Mus musculus with 16 samples.

Results

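The Schlafen cluster is a run of related genes on mouse chromosome 11, described here in the FO (follicular) and MZ (marginal zone) B cells of the spleen with and without an intact Gtf2i gene. Its 8 members were found by symbol among the 27928 genes of the deposited table: Slfn1, Slfn2, Slfn3, Slfn4, Slfn5, Slfn8, Slfn9 and AA465934, a transcript at the far end of the cluster. The members were chosen on their measured differences between genotypes in these same libraries, so those differences are given as a description without a test. The Schlafen genes take their name from the German verb for sleep, because the founding members restrained the growth of developing T cells. Many of them are induced by interferon, the secreted signal of antiviral defence, and the longer members carry a helicase-like region that the short members lack. Slfn2 is known for keeping resting T cells quiescent.

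RNA was measured in 2 libraries from each of 4 groups: WT FO, WT MZ, cKO FO and cKO MZ B cells. All mice had the C57BL/6 strain label and were young adults, and no stimulation of these cells is named. The cKO mice carried Gtf2i fl/fl and a Cre allele active in B cells, which cuts the floxed alleles of Gtf2i, the gene of the transcription factor TFII-I, from the B lineage onwards. The WT mice were C57BL/6 animals without these alleles, so that Cre and the loss of Gtf2i came together in the cKO groups. FO B cells were sorted as CD21-low CD23-high and MZ B cells as CD21-high CD23-low. The labels do not say whether the 2 libraries of a group came from separate mice, and p-values then measure only the spread between these libraries, which may be technical.

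The libraries held 21546552 to 25083552 reads on genes. Gtf2i itself lay between 1992 and 2864 normalized counts in the WT and between 1523 and 1889 in the cKO libraries. These are counts over the whole gene and do not separate the floxed exons. The sort markers followed the labels: Cr2, the CD21 gene, was higher in each MZ than in each FO library, and Fcer2a, the CD23 gene, was higher in each FO library. The level of Xist ranged from 25929.5 to 47002 normalized counts in WT and from 21.7 to 14748 in cKO libraries, while Ddx3y, a gene of the Y chromosome, did not exceed 6.34 in WT and reached 2682 or more in cKO. Replicate 1 of cKO FO held both, with Xist at 14748 and Ddx3y at 2682. Genotype and sex therefore cannot be told apart in any cKO-to-WT value below. The library cKO MZ replicate 1 stood apart in granulocyte markers, whose summed level over 14 genes was 2082 normalized counts there and between 57.1 and 139 in the other 7 libraries. In bulk RNA, fewer cells of a type and less RNA per cell cannot be told apart.

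The cluster spanned 343.3 kb of chromosome 11, from 82951349 to 83294632 of GRCm38 in the GENCODE M21 annotation. In the order of the chromosome, Slfn5 (ENSMUSG00000054404.13) lay from 82951349 to 82964840 on the plus strand, Slfn9 (ENSMUSG00000069793.12) from 82978390 to 82991830 on the minus strand and Slfn8 (ENSMUSG00000035208.16) from 83002158 to 83020810 on the minus strand. Slfn2 (ENSMUSG00000072620.3) followed from 83065112 to 83070678 and Slfn1 (ENSMUSG00000078763.2) from 83116849 to 83122670, both on the plus strand. Slfn4 (ENSMUSG00000000204.16) lay from 83175186 to 83190216, Slfn3 (ENSMUSG00000018986.10) from 83191330 to 83215154 and AA465934 (ENSMUSG00000093483.1) from 83291699 to 83294632, again on the plus strand. The first 7 are protein-coding genes, whereas AA465934 is annotated as a processed transcript without a coding sequence and holds the small nucleolar RNA Snord7.

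The coding sequences sort the 7 Schlafen genes by length. The longest annotated coding sequences had 337 codons in Slfn1 and 378 in Slfn2, 602 in Slfn4 and 640 in Slfn3, 884 in Slfn5, and 910 in both Slfn8 and Slfn9. In pairwise alignments the bases of Slfn8 and Slfn9 were 92.7% identical over their whole length, and those of Slfn3 and Slfn4 were 92.7% identical over 1785 aligned bases. The other 19 pairs lay between 63.2% and 77.02%. Slfn8 and Slfn9, which have the same coding length, sit next to each other on the same strand.

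The authors' reads were 50 bases long, and related genes can share stretches of that length. Of the distinct 50-base windows in the annotated transcripts of a gene, those found in no other gene's transcripts and nowhere else in the genome made up 84.8% for Slfn8, 82.6% for Slfn9, 74.7% for Slfn3, 88.6% for Slfn5, 94.4% for Slfn2, 99.4% for Slfn1 and 100.0% for AA465934. Slfn8 and Slfn9 shared 389 windows with each other, and the pseudogene Slfn10-ps beside them shared 423 with Slfn8 and 483 with Slfn9. Slfn3 and Slfn4 shared 252. How the authors' counting treated reads that fit several genes is not given in the sources used here, so levels of Slfn3, Slfn4, Slfn8 and Slfn9 are uncertain to that extent. Whether counting used strand is also not given. The antisense gene Gm20234 overlaps Slfn2, and Slfn5os overlaps Slfn5 but had at most 2 reads in any library.

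The bases upstream of Slfn9 and Slfn8 are shown because these neighbours differed in opposite directions between the genotypes, those of Slfn5 because it was the third member with the same motif, and those of AA465934 because it differed in the direction of Slfn9. The sequences are from RefSeq on GRCm38.p6, read 5′ to 3′ on the strand of the gene, and end at the base before a RefSeq start. That start is 82952102 for Slfn5, inside the gene as GENCODE gives it, because a shorter GENCODE transcript begins further upstream, and the Slfn5 stretch ends where the next exon of that transcript begins. The Slfn9 stretch is chr11:82991831-82992080 on the minus strand, Slfn8 chr11:83020811-83021060 on the minus strand, Slfn5 chr11:82951852-82951984 on the plus strand and AA465934 chr11:83291449-83291698 on the plus strand. Capitals mark GAAANNGAAA, the core of the interferon-stimulated response element (ISRE), on either strand, and in AA465934 the E-box CACGTG.
Slfn9: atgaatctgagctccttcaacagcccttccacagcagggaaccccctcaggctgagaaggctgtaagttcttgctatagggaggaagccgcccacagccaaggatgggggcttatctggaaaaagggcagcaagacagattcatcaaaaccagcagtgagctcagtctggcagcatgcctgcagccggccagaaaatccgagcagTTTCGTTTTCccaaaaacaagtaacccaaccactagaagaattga
Slfn8: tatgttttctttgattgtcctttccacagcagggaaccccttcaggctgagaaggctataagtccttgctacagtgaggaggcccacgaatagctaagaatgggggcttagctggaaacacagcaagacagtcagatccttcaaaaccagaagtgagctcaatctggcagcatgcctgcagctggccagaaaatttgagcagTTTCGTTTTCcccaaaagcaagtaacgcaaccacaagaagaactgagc
Slfn5: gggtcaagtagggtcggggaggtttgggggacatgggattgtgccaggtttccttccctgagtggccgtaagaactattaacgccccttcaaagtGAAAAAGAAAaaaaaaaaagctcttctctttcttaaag
AA465934: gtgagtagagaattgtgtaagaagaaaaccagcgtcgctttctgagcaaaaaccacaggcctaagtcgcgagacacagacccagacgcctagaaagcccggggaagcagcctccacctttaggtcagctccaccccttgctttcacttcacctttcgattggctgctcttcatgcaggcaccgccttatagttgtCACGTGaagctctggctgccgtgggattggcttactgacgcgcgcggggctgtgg

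The upstream bases of Slfn8 and Slfn9 were 85.1% identical over 242 aligned bases. Their ISRE cores were the same 10 letters on the opposite strand to the gene and began at position -45 of Slfn9 and -48 of Slfn8, counted from the RefSeq starts 82991830 and 83020810. Slfn8 has another RefSeq start further inside the gene, from which the same core began at -136. The core of Slfn5 began at -155 from its RefSeq start, on the strand of the gene. In windows of 300 bases, from 250 before to 50 after each start, the ISRE core was found for Slfn5, Slfn8 and Slfn9 and not for the other 5 members, and 3.44% of all 32851 such RefSeq windows held it. The E-box was found for AA465934 alone among the members and in 7.15% of all windows. The interferon motif GAS, searched as TTCNNNGAA, was found in no member's window and in 8.3% of all. A match describes letters and is no evidence that a factor binds.

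Levels are given as normalized counts, which are reads divided by a size factor of the library, and a gene was tested if its mean over the 8 libraries was at least 10. That left 7 of the 8 members, since Slfn4 fell under it. In all 8 libraries Slfn2 was the most abundant of the 7 Schlafen genes, with 45.3% to 56.5% of their summed count. Per kilobase of exon, the mean level in WT FO B cells was 3769 normalized counts for Slfn2, 749 for Slfn8, 344 for Slfn5, 70.6 for AA465934, 52.3 for Slfn1, 38.7 for Slfn9, 22.2 for Slfn3 and 1.21 for Slfn4. Of neighbours in this order, the libraries of Slfn1 and Slfn9 overlapped and the others did not. In WT MZ B cells the first 4 places were the same, and Slfn9, Slfn1 and Slfn3 overlapped in turn. In cKO FO B cells AA465934 at 276 and Slfn9 at 253 stood in the third and the fourth place behind Slfn2 and Slfn8, and Slfn9 overlapped Slfn5 at 223. In cKO MZ B cells AA465934 at 249.8 stood above Slfn8 at 209 and Slfn9 at 181 with no overlap.

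**Figure D1:**
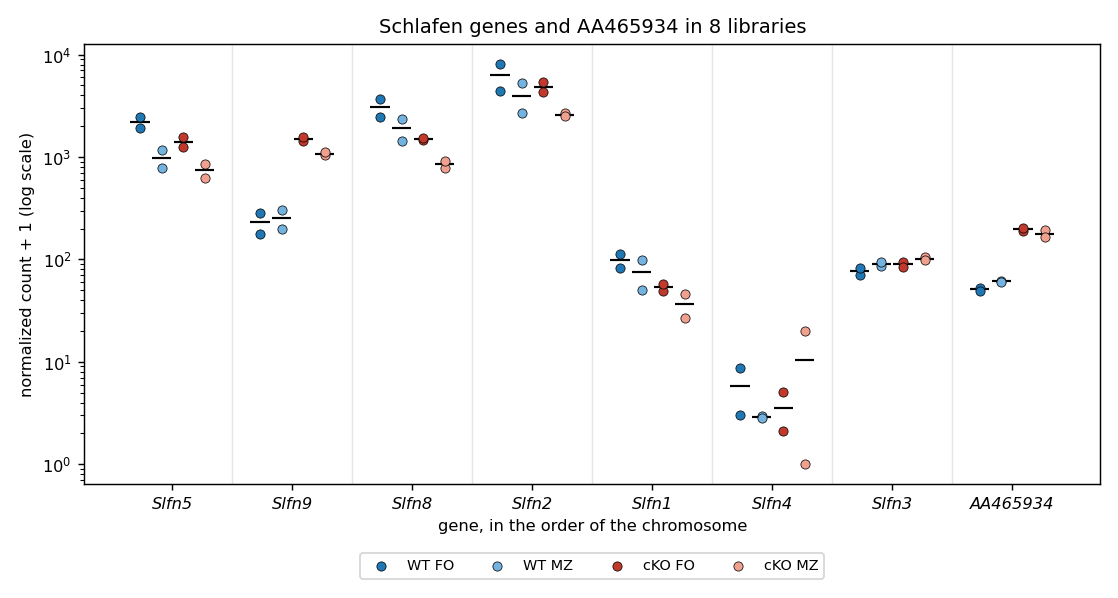
Normalized count plus 1 on a log scale for the 8 members in chromosomal order, with a point for each library and a bar for the mean of the 2 libraries of a group. Slfn9 and AA465934 are higher in the 4 cKO than in the 4 WT libraries, and Slfn8 is lower within each subset.

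The genotype comparison addressed how gene expression in B cells deficient in TFII-I differs from WT, and among the long members it went in both directions. Slfn9 stood at 177 and 284 normalized counts in the WT FO libraries, at 198 and 305 in the WT MZ libraries, at 1438 and 1584 in those of cKO FO and at 1036 and 1123 in those of cKO MZ. All 4 cKO libraries lay above all 4 WT libraries, and the mean was 6.55 times higher in cKO FO and 4.29 times higher in cKO MZ, or 2.75 and 2.13 on the scale of log2(normalized count + 1). Slfn8 stood at 2475 and 3653 in the WT FO libraries, at 1448 and 2362 in the WT MZ libraries, at 1452 and 1542 in those of cKO FO and at 788 and 923 in those of cKO MZ. Within each subset the cKO libraries lay under the WT libraries, with log2 differences of -1.01 in FO and -1.12 in MZ B cells. Slfn5 stood at 1898 and 2459 in the WT FO libraries, at 779 and 1182 in the WT MZ libraries, at 1239 and 1585 in those of cKO FO and at 629 and 854 in those of cKO MZ. Its cKO libraries were lower in FO B cells, at -0.62 on the log2 scale, and overlapped those of WT in MZ B cells, at -0.39. This MZ value was -0.09 without WT MZ replicate 2 and -0.17 without cKO MZ replicate 1.

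The short members, which lack the helicase-like region, were both lower on average in cKO. Slfn2 stood at 4445 and 8100 normalized counts in the WT FO libraries, at 2720 and 5254 in the WT MZ libraries, at 4314 and 5389 in those of cKO FO and at 2675 and 2504 in those of cKO MZ. The groups overlapped in FO and did not in MZ, where the difference was -0.55 on the log2 scale against -0.32 in FO B cells. Both values rest on single WT libraries. The FO value was 0.12 without WT FO replicate 2, and the MZ value was -0.07 without WT MZ replicate 2. Slfn1 stood at 81.8 and 113 in the WT FO libraries, at 49.1 and 98.7 in the WT MZ libraries, at 48.1 and 56.4 in those of cKO FO and at 44.9 and 25.8 in those of cKO MZ, with differences of -0.87 and -1.01 and no overlap in either subset. The MZ value was -0.52 without WT MZ replicate 2 and -0.62 without cKO MZ replicate 2. These counts come from 25 to 119 reads a library.

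The intermediate members were at low levels. Slfn3 stood at 69.9 and 81.8 normalized counts in the WT FO libraries, at 84.8 and 92.4 in the WT MZ libraries, at 94.1 and 83.5 in those of cKO FO and at 104.7 and 96.9 in those of cKO MZ, and the cKO libraries were above WT in both subsets by 0.23 and 0.18 on the log2 scale. The FO value was 0.11 without WT FO replicate 1 and 0.14 without cKO FO replicate 1. Slfn4 had 0 to 8 reads in 7 libraries and 19 in cKO MZ replicate 1, the library high in granulocyte markers. The protein-coding Slfn14, which is also in the cluster but not among the members, had 52 reads in that library and at most 6 in the others. The part of that library's other markers in both values was not tested. AA465934 stood at 51.9 and 48.5 in the WT FO libraries, at 60.7 and 59.8 in the WT MZ libraries, at 189 and 203 in those of cKO FO and at 192 and 163 in those of cKO MZ, so that the cKO mean was 3.91 times and 2.95 times higher, or 1.95 and 1.54 on the log2 scale.

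Of the 7 members that passed the filter, Slfn3, Slfn9 and AA465934 had all cKO libraries above the WT libraries in FO and again in MZ B cells, while Slfn1 and Slfn8 had all cKO libraries below in both. Among all 14761 genes tested, 10.9% had both cKO libraries above both WT libraries in FO, 15.8% in MZ and 3.88% in both subsets. The share with both cKO libraries below was 13.1% in FO, 18.7% in MZ and 5.46% in both. Since the members were selected on this contrast, nothing is read from their count against these shares.

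Slfn8 and Slfn9 were compared within each library, where depth is shared. Slfn9 made up 6.66% and 7.22% of the summed Slfn8 and Slfn9 count in the WT FO libraries and 12.1% and 11.4% of it in WT MZ. Its share reached 49.7% and 50.7% in the libraries of cKO FO B cells, and 56.8% and 54.9% in those of cKO MZ. The sum itself was 2652 and 3938 in WT FO against 2890 and 3126 in cKO FO, and 1646 and 2667 in WT MZ against 1824 and 2046 in cKO MZ. The cKO sums lay inside the range of the WT sums in each subset, whereas the shares of the genotypes were far apart. Within the summed count of the 7 Schlafen genes, Slfn8 took 24.9% to 27.4% in the 4 WT libraries and 14.9% to 16.9% in the 4 cKO libraries. Slfn9 took 1.93% to 3.76% in WT and 15.5% to 20.3% in cKO. The summed count of the 7 ran from 9148 to 14699.6 in WT FO against 8587 to 10244.5 in cKO FO, and from 5281 to 9295 in WT MZ against 5296 to 5526 in cKO MZ B cells, so that it overlapped between the genotypes in each subset. Within each genotype, every MZ library also had a higher share than every FO library. The log2 ratio of Slfn8 to Slfn9 in FO exceeded that in MZ B cells by 0.84 in WT and 0.33 in cKO. The mean difference of 0.58 had p = 0.05556 in a two-sided exact permutation test within genotype (2 libraries in each of 4 groups), which is the smallest p that its 36 arrangements can give.

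**Figure D2:**
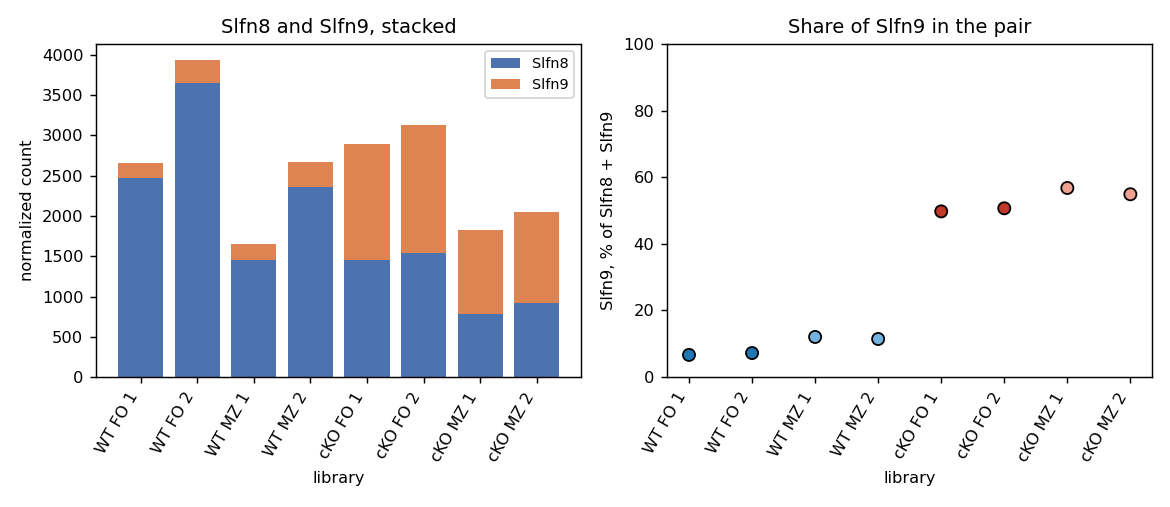
Left, stacked normalized counts of Slfn8 and Slfn9 in each of the 8 libraries; right, the percentage of their sum that was Slfn9. The share is at most 12.1% in WT and at least 49.7% in cKO libraries, while the sums of the genotypes overlap.

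FO and MZ B cells were then compared by limma in 1 fit of the 8 libraries, a comparison that did not choose the members. A gene was called where its p, adjusted by Benjamini and Hochberg over all 14761 genes, was no higher than 0.05 and its difference reached 1.5-fold. Slfn5 was called higher in FO B cells in both genotypes, and it was the sole member called in either. In WT it was 2.25 times higher (log2 difference 1.17, SE 0.24, limma adjusted p = 0.0165). In cKO it was 1.91 times higher (log2 difference 0.93, SE 0.24, limma adjusted p = 0.0338). Both FO libraries were above both MZ libraries in each genotype. Of all genes, 4.62% were called higher in FO and 7.41% higher in MZ in WT, and 5.54% and 8.18% in cKO. The WT call was lost without WT FO replicate 2 (limma adjusted p = 0.0724) or WT MZ replicate 1 (limma adjusted p = 0.0697), and the cKO call was lost without any 1 of the 4 cKO libraries (limma adjusted p from 0.0586 to 0.21).

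Across both genotypes 3 of the 7 members were called higher in FO B cells and none higher in MZ B cells, while 7.45% of all genes were called higher in FO and 10.9% higher in MZ. Slfn5 was 2.07 times higher (log2 difference 1.05, SE 0.17, limma adjusted p = 0.00287), Slfn8 1.69 times (log2 difference 0.76, SE 0.18, limma adjusted p = 0.0138) and Slfn2 1.72 times (log2 difference 0.78, SE 0.24, limma adjusted p = 0.0424). Slfn8 lost the call without cKO MZ replicate 1 (limma adjusted p = 0.0584), and without WT MZ replicate 1 its difference of 0.58 on the log2 scale came under 1.5-fold. Slfn2 lost it without any 1 library other than WT FO replicate 1 and WT MZ replicate 2 (limma adjusted p from 0.0802 to 0.126), and also without the filter on low counts (limma adjusted p = 0.0614) or with quantile normalization (limma adjusted p = 0.0864). When the recovered reads were tested with DESeq2, Slfn8 was called within WT (adjusted p = 0.0278) and cKO (adjusted p = 0.00736). The main limma fit did not call it in either (limma adjusted p = 0.102 and 0.0594). With a term for the replicate number, limma called it in both (limma adjusted p = 0.0177 in WT and 0.00889 in cKO). That fit also called Slfn2 within cKO (limma adjusted p = 0.0305).

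The other 4 members were not called between FO and MZ B cells in any of the 3 comparisons. Their log2 differences across both genotypes were 0.53 for Slfn1 (95% interval -0.15 to 1.21), -0.20 for Slfn3 (-0.55 to 0.14), 0.18 for Slfn9 (-0.25 to 0.60) and -0.06 for AA465934 (-0.37 to 0.26). For Slfn9 the estimate was -0.13 in WT and 0.48 in cKO. The interaction of subset and genotype was -0.62 for Slfn9 (SE 0.37) and had a limma adjusted p of 1 for each of the 7 members, so no difference between the genotypes in the FO-to-MZ comparison was detectable with 2 libraries per group.

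**Figure D3:**
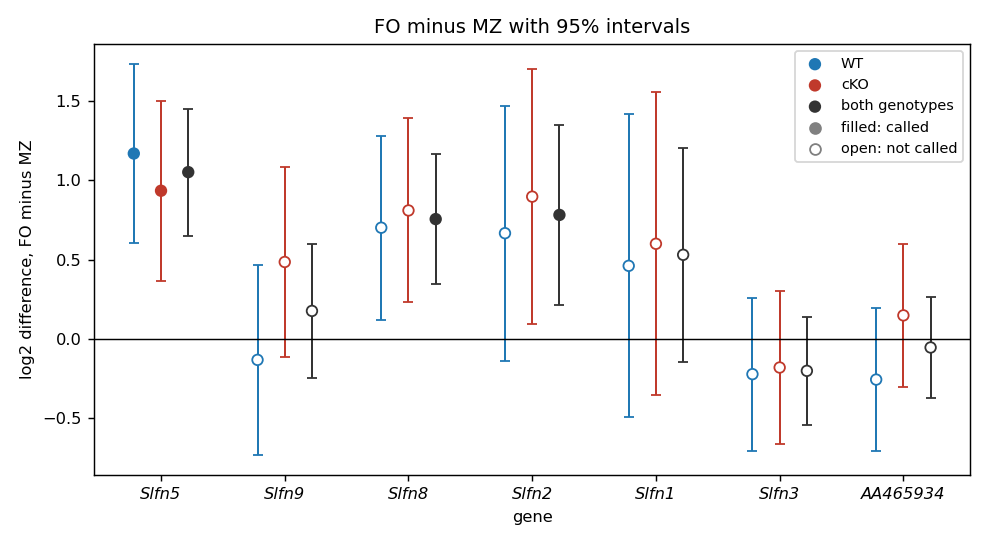
Difference of FO from MZ B cells on the log2 scale for 7 members in WT, in cKO and across both genotypes, with 95% intervals from the limma fit; filled points were called. Slfn5 lies near 1 in all 3 comparisons, and the intervals of Slfn9, Slfn3 and AA465934 include 0.

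The chromosome around the cluster was examined next. Within 1 Mb of the members the table held 53 other genes, of which 26, Slfn10-ps among them, passed the filter. The genotypes did not overlap in 13 of the 26 in FO (7 higher and 6 lower in cKO) and in 9 in MZ B cells (7 higher and 2 lower), beside 10.9% higher and 13.1% lower in FO and 15.8% and 18.7% in MZ B cells among all tested genes. In both subsets 3 were higher, and 1 was lower, beside 3.88% higher and 5.46% lower in both among all tested genes. The median log2 difference of the 26 neighbours was -0.06 in FO and -0.01 in MZ B cells, beside -0.01 and -0.01 over all tested genes. No neighbour passed limma between the genotypes, and edgeR and DESeq2 called 0. An unadjusted limma p under 0.05 was found for 1 in FO and 1 in MZ. Among all 14761 genes limma called 8 higher and 2 lower in cKO FO, and 5 higher and 0 lower in cKO MZ. An unadjusted limma p under 0.05 was found for 382 of all genes in FO and 596 in MZ. With so few calls over all genes, a set without a call, here or below, does not show that the genotypes were alike.

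The nearest tested gene before the cluster did not follow Slfn5 at its near end. This gene, Nle1, a ribosome assembly factor 42938 bases away, differed by 0.20 in FO and 0.06 in MZ B cells on the log2 scale. Snord7, inside AA465934, had 9.98 and 6.66 normalized counts in WT FO against 14.6 and 21.1 in cKO FO, a log2 difference of 1.02 without overlap that was the highest of the 26 neighbours in FO B cells. In MZ B cells its libraries overlapped, with 6.74 and 5.43 in WT against 11.96 and 6.19 in cKO and a difference of 0.45. Slfn10-ps, between Slfn8 and Slfn2, stood at 163 and 172 in the WT FO libraries, at 152 and 174 in the WT MZ libraries, at 102 and 168 in those of cKO FO and at 194 and 174 in those of cKO MZ. Its differences between the genotypes were -0.35 in FO and 0.18 in MZ B cells. Gm20234, antisense to Slfn2, differed by -0.28 and -0.76. The non-coding gene 1190001M18Rik, between Slfn5 and Slfn9, was not tested, since its mean over the 8 libraries was 3.71. It had 0 and 0.95 normalized counts in WT FO against 8.96 and 10.1 in cKO FO, a log2 difference of 2.91 without overlap. In MZ B cells its libraries overlapped, with 0 and 3.62 in WT against 3.99 and 2.06 in cKO and a difference of 0.86. Slfnl1, a Schlafen-like gene on chromosome 4, had at most 9 reads in any library.

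Between FO and MZ B cells, limma called the antiprotease-like gene Wfdc17 higher in FO and the transcriptional adaptor Tada2a higher in MZ B cells in both genotypes, and Cct6b, a chaperonin subunit gene, higher in MZ B cells in cKO. Across both genotypes the chemokine gene Ccl3 was also called higher in MZ B cells. In all, 2 of 26 neighbours were called in WT, 3 in cKO and 4 across both. Of all tested genes, 4.62% were called higher in FO and 7.41% higher in MZ in WT. The shares were 5.54% and 8.18% in cKO, and 7.45% and 10.9% across both.

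**Figure D4:**
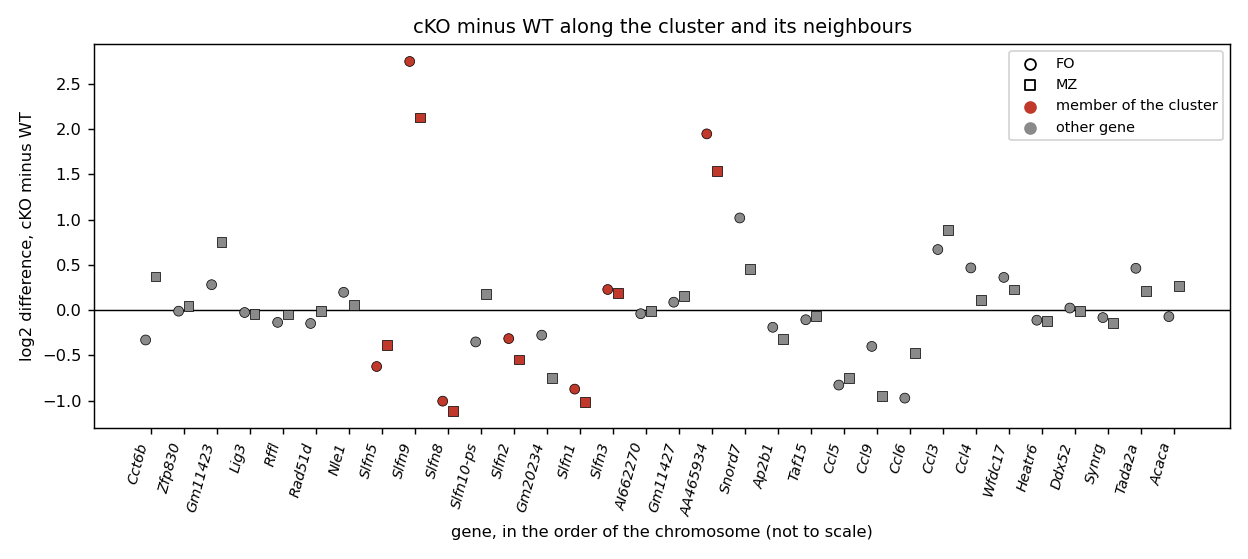
Log2 difference between cKO and WT in FO (circles) and MZ (squares) B cells for the 7 tested members (red) and the 26 tested neighbours except 1 (grey), in chromosomal order and not to scale. Slfn9 and AA465934 stand above all neighbours shown, whose values lie between -0.97 and 1.02. Neighbours that did not pass the filter, such as 1190001M18Rik, are not shown.

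For each member, the most alike genes outside the cluster were sought over the 8 libraries. Likeness was the root mean square difference of log2 values after subtracting each gene's mean. The 3 genes most like Slfn2 were Gpat3, a glycerol phosphate acyltransferase, 2810408A11Rik and the septin Sept11, at 0.12, 0.15 and 0.15. For Slfn5 they were Dennd5b, Hsd11b1 and Xkrx, at 0.15 to 0.16, and for Slfn3 Ift52, Anp32b-ps1 and Clns1a, at 0.06 to 0.07. Slfn8 was most like the adenosine receptor gene Adora2a, then Cntd1 and the chemokine receptor gene Ccr9, at 0.24 to 0.25. Slfn1 was most like Gm48621, Adora2a and Igkv6-25, at 0.21 to 0.23, so Adora2a stood on the lists of both Slfn1 and Slfn8. It stood at 179 and 252 normalized counts in the WT FO libraries, at 92.5 and 214 in the WT MZ libraries, at 103 and 126 in those of cKO FO and at 62.8 and 45.4 in those of cKO MZ.

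Among genes outside the cluster, those nearest to Slfn9 were Gipc3, Tmem255a and the serine protease inhibitor gene Serpina3f, at 0.58, 0.58 and 0.65. Genes inside the cluster were left out of this ranking. The measure grows with a member's own spread around its mean, which was 1.25 for Slfn9 and 0.17 for Slfn3. Its size therefore does not compare members. AA465934 was most like Slc41a3, which encodes a magnesium transporter-like protein, Serpina3f and Rp1, at 0.31, 0.36 and 0.38. Slc41a3 stood at 109 and 117 normalized counts in the WT FO libraries, at 96.3 and 96.9 in the WT MZ libraries, at 249.7 and 255 in those of cKO FO and at 260 and 226 in those of cKO MZ. Each of these 5 genes lies on a chromosome other than 11, whereas 2810408A11Rik and Cntd1, named for Slfn2 and Slfn8, lie on chromosome 11. Likeness was taken over all 8 libraries and so includes the cKO-to-WT difference on which the members were chosen.

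Because several Schlafen genes are interferon-induced, 30 interferon-response genes were described beside them, all of which passed the filter. Their mean was lower in cKO for 27 of 30 in FO and 29 of 30 in MZ B cells, with median log2 differences of -0.24 and -0.36. The cKO libraries lay under the WT libraries for 6 in FO and 19 in MZ B cells, and above for 0, beside 13.1% and 18.7% below among all tested genes. No gene of the list passed limma between the genotypes in FO (1 had an unadjusted p under 0.05) or in MZ (8 had one). edgeR also called 0 in each, and DESeq2 called 0 in FO and 2 lower in MZ B cells. Of all 14761 genes, 382 in FO and 596 in MZ had an unadjusted limma p under 0.05. DESeq2 called 18 of all genes lower in cKO MZ. Irf7, the regulator that amplifies the interferon response, stood at 1902 and 1970 normalized counts in the WT FO libraries, at 1234 and 1606 in the WT MZ libraries, at 1570 and 1679 in those of cKO FO and at 692 and 928 in those of cKO MZ. Oasl1 had 1285 and 1175, 1281 and 1118, 1153 and 868, and 587 and 793 in the same order. The directions of Slfn1, Slfn2, Slfn5 and Slfn8 were thus those of most genes of the list, and those of Slfn3, Slfn9 and AA465934 were not.

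**Figure D5:**
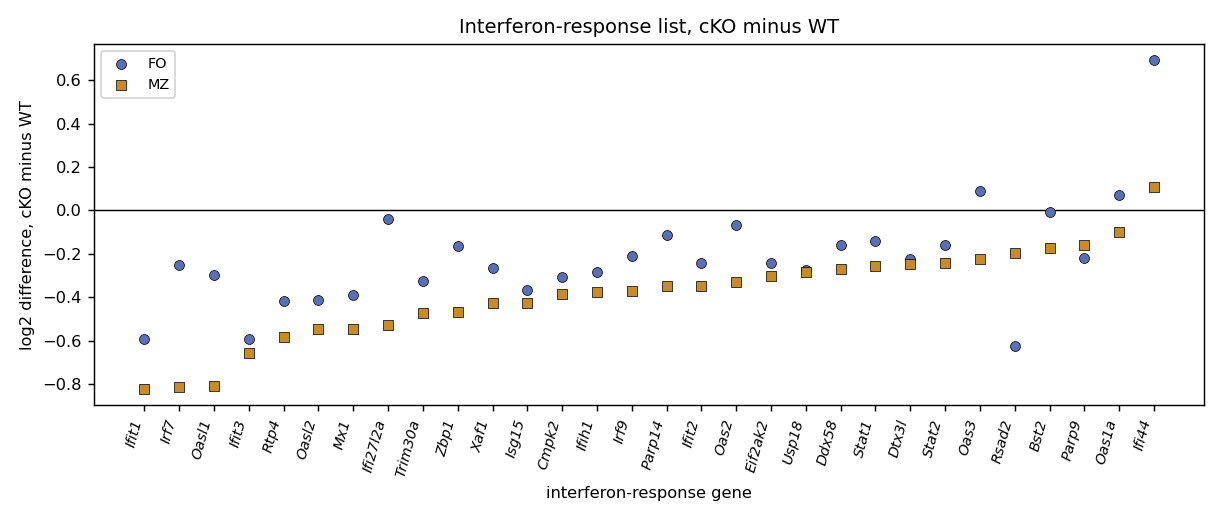
Log2 difference between cKO and WT for the 30 interferon-response genes in FO (circles) and MZ (squares) B cells, ordered by the MZ value. Of the 30, 27 lie below 0 in FO and 29 in MZ B cells.

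Between FO and MZ B cells, 2 of the 30 interferon-response genes were called in WT and 3 in cKO, in both directions. Among all tested genes, 4.62% were called higher in FO and 7.41% higher in MZ in WT, and 5.54% and 8.18% in cKO. In WT, Isg15, a ubiquitin-like antiviral protein, and Oas2, a sensor of double-stranded RNA, were called higher in MZ B cells. In cKO, Isg15 was called higher in MZ and Irf7 and Ifi27l2a higher in FO B cells. Isg15 had 116 and 185 normalized counts in WT FO against 497 and 558 in WT MZ, and 101 and 127 in cKO FO against 376 and 408 in cKO MZ B cells (log2 differences of -1.84 and -1.78, with limma adjusted p = 0.00218 and 0.00214). Slfn5, Slfn8 and Slfn2 went the other way between the subsets than Isg15 did, and the same way as Irf7 and Ifi27l2a. Across both genotypes, 13 of the 30 list genes had the higher mean log2 value in FO and 17 in MZ B cells.

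Of the 9 genes of the interferon receptors and their kinases, limma called Ifnar1, a subunit of the type I interferon receptor, and the kinase Jak1 higher in FO B cells in both genotypes, and the kinase Jak2 and the feedback inhibitor Socs3 in cKO. Of all tested genes, 4.62% were called higher in FO in WT and 5.54% in cKO. Whether the genotypes differed in these FO-to-MZ comparisons was not tested. Between the genotypes, none of the 9 passed limma (0 had an unadjusted p under 0.05 in either subset, and edgeR and DESeq2 called 0). Of 12 genes linked to lymphocyte quiescence, the setting in which Slfn2 is best known, limma called the transcription factor gene Foxo1 higher in FO B cells in both genotypes and Klf2 in cKO (limma adjusted p = 0.0499), where edgeR called 1 gene of the 12. None passed limma between the genotypes (0 had an unadjusted p under 0.05 in either subset, and edgeR and DESeq2 called 0). Their median cKO-to-WT difference was -0.02 in FO and -0.04 in MZ B cells on the log2 scale.

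Markers of other cells were read beside the members. The summed level of 13 T cell markers was 1195 to 1509.7 normalized counts in the WT and 901 to 1154 in the cKO libraries, most of it from Lck, and Cd3e was at most 5.71 in any library. The macrophage and monocyte list of 14 genes ranged from 833 to 2205 in WT and from 862 to 2378 in cKO, and the dendritic list of 10 genes from 261 to 536 and from 293 to 543. Slfn1, Slfn2, Slfn5 and Slfn8 moved in the direction of the summed T cell list between the genotypes. Lck, Zap70 and Lat were lower in the cKO libraries of both subsets, and Il7r was higher in those of cKO FO. Cd3e, Cd3d, Cd3g, Cd4 and Cd8a overlapped between the genotypes in both subsets, at no more than 19.03 normalized counts. The part of the T cell list in the members' values was not tested. Leaving out cKO MZ replicate 1, the library high in granulocyte markers, changed the sign of no cKO-to-WT difference of the 7 tested members.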

How the data were processed

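RNA of sorted FO and MZ B cells was sequenced after depletion of ribosomal RNA, as single reads of 50 bases. Per the labels and the methods of the study, reads were aligned to mm10 with HISAT2, counted on genes with featureCounts and HTSeq and analysed with DESeq2, in versions that are not given in the sources used here. The authors deposited the signal as normalized counts of 27928 genes, each a number of reads divided by its library's DESeq2 size factor, and 256343 blank lines were left out. Dividing by the smallest step of each library gave whole reads for 100% of the values (within 0.01 reads).

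In R 4.3.3, limma 3.58.1 (lmFit, eBayes with trend) fitted log2(normalized count + 1) of the 14761 genes with a mean of at least 10. edgeR 4.0.16 and DESeq2 1.42.0 on the recovered reads were alternatives. The pseudocount makes the differences of low genes smaller. The scripts were tested on simulated data. Counting error is small at this depth except for Slfn1, Slfn3, Slfn4 and AA465934, and precision is set by the small number of libraries.

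The members, the gene lists and the tests were chosen with earlier results of these data known. The named genes are the members and other Schlafen genes, the nearest tested neighbours and those called between FO and MZ, the 3 genes most like each member, and list genes called in both genotypes. Slfn5os, Gm20234 and Snord7, which overlap members, and 1190001M18Rik, Irf7, Oasl1, Oas2, Ifi27l2a, Jak2, Socs3 and Klf2 were picked with their values known. For the same reason the opposite directions of the members are no independent finding. Genes that the rule names but the text does not give are not reported here. The 8 ATAC-seq samples were not analysed here.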

Additional observations from a re-analysis of the deposited data

How the results depend on the processing

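The fit was repeated with a smaller pseudocount (0.5), with quantile normalization, without the filter, on the 4 libraries of a comparison alone, with a replicate block, without a fold cutoff, at 2-fold and without each library, and the recovered reads were tested with edgeR and DESeq2. Each group had 2 libraries, and the call of Slfn5 across both genotypes was kept under each alternative run, with limma adjusted p up to 0.0154.

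Members called in WT numbered 1, but 0 in the fit of the 4 libraries and 2 by DESeq2, and 0 to 2 without 1 library. In cKO they numbered 1, but 0 without the filter or at 2-fold, 3 in the fit of the 4 libraries and 2 by DESeq2, and 0 to 3 without 1 library. Across both genotypes they numbered 3, but 2 without the filter or with quantile normalization, where Slfn2 was lost, 1 at 2-fold, and 1 to 3 without 1 library. Interferon-response genes called in WT numbered 2, but 1 at 2-fold, and 2 to 4 without 1 library, and in cKO 3, but 5 in the fit of the 4 libraries, and 2 to 4 without 1 library. Neighbours called in WT numbered 2, but 1 in the fit of the 4 libraries or at 2-fold, and 2 to 3 without 1 library. In cKO they numbered 3, but 1 with quantile normalization, 6 with no fold cutoff, and 1 to 3 without 1 library.

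Deviations of same-numbered libraries correlated at 0.59 between WT FO and WT MZ, so in WT the replicate numbers went together across subsets. Between cKO FO and cKO MZ the correlation was -0.0015. Across the genotypes it was 0.29 between WT FO and cKO FO and 0.16 between WT MZ and cKO FO. It was -0.17 between WT FO and cKO MZ and -0.30 between WT MZ and cKO MZ. The main fit held no term for the replicate number. With the replicate block, members called numbered 2 in WT, 3 in cKO and 3 across both, interferon-response genes 5 in WT and 7 in cKO, and neighbours 2 and 4. The calls added were of Slfn8 within WT and within cKO (limma adjusted p = 0.0177 and 0.00889) and of Slfn2 within cKO (limma adjusted p = 0.0305).

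Differences between FO and MZ B cells that changed sign were all of members not called. That of Slfn1 in WT ranged from -0.0359 (without WT MZ replicate 1) to 0.96 with 1 library left out, that of Slfn9 in WT from -0.48 to 0.21 (without WT FO replicate 1, and 0.18 without WT MZ replicate 2), and that of AA465934 across both from -0.12 to 0.0039 (without cKO MZ replicate 1). With quantile normalization, Slfn3 in cKO was at 0.056 and AA465934 across both at 0.092. Of the cKO-to-WT differences, that of Slfn2 in FO B cells changed sign, ranging from -0.75 to 0.12 (without WT FO replicate 2), and those of the other tested members kept theirs under each alternative run. The cause of these shifts was not tested.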
